A study of Mus musculus with 6 samples.

Results

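The genes described here are 8 mouse genes known from the heart, matched by symbol to the deposited expression table. They are 3 genes of cardiomyocyte function (Tnnt2, Gja1 and Atp2a2) and 5 cardiac transcription factors (Gata4, Gata6, Tbx5, Tbx20 and Hand2). The rule matched 7 of the 8 among 19877 genes, and Tbx20 was not analysed here. Of the 7, 4 were abundant enough to test (Tnnt2, Gja1, Atp2a2 and Gata6) and 3 were not (Gata4, Tbx5 and Hand2).

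The cells are mouse cells labelled ADSCs of WT genotype, which usually stands for stem cells of adipose tissue, a stromal cell type. The knockdown group (3 libraries) is labelled sh-Ifit1, a hairpin against Ifit1, an interferon-induced gene whose protein binds foreign RNA. The scrambled group (3 libraries) carries a scrambled hairpin. The labels place 1 library of each group in each of 3 batches, and the series' title sets the cells in the context of therapy for myocardial infarction and of myogenic differentiation. The sources used here do not give the hairpin's target position, the number of hairpins or clones, or the animals' strain and age. No label ties the libraries to separate cultures or animals. The spread behind each p-value is therefore that between these libraries and may be technical.

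In a heart muscle cell, GATA, T-box and HAND factors act together on the genes of contraction and conduction. Troponin T ties the thin filament to its calcium switch, SERCA pumps return calcium to the store from which it is released, and connexins join neighbouring cells electrically. Delivery of cardiac transcription factors such as Gata4 and Tbx5 to fibroblasts is a known route to cardiomyocyte-like cells. Gja1, Atp2a2 and Gata6 are also active in many cells outside the heart, among them stromal cells.

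Ifit1 RNA was lower in the knockdown libraries, at 1.76, 1.48 and 1.51 FPKM, against 4.90, 3.75 and 4.97 FPKM in the scrambled libraries (FPKM scales fragments by gene length and library total), a log2 fold change of −1.27 ± 0.11 (SE, limma adjusted p = 5.71e-05). Between 32.2 and 40.2 M fragments were recovered per knockdown library and between 37.1 and 40.6 M per scrambled library. Of the 10 listed stromal markers, all had a row and 9 were abundant enough to test. Of these 9, 3 were higher (Cd44, Itgb1 and Alcam) and 5 lower in knockdown (Thy1, Eng, Ly6a, Pdgfra and Pdgfrb). Among all tested genes 19.8% were called higher and 31.1% lower. Nt5e, too low for the test, was at most 0.351 FPKM in any library. Summed over the 10 markers, the level was 546 to 574 FPKM in knockdown and 542 to 547 FPKM in scrambled libraries. Most of each sum was Itgb1, with means of 316 FPKM in knockdown and 296 FPKM in scrambled libraries. Of 5 blood cell markers with a row, 1 was tested (Cd68) and did not pass, and Ptprc was at most 0.00524 FPKM in any library. All 5 endothelial markers stayed below 0.1 FPKM. Of 14 cardiomyocyte markers, 7 had a row, and all 7 stayed below 1 FPKM in every library. Their summed level was 0.617 to 0.700 FPKM in knockdown and 0.372 to 0.571 FPKM in scrambled libraries. Most of it was Nppb, the natriuretic peptide gene, and Tnni3, cardiac troponin I, which moved in opposite directions. Nppb averaged 0.578 FPKM in knockdown and 0.172 FPKM in scrambled libraries, and Tnni3 averaged 0.0698 FPKM in knockdown and 0.280 FPKM in scrambled libraries. Myl7, the atrial myosin light chain gene, was listed at 0 in 5 of the 6 libraries, and so was Actc1, cardiac alpha-actin. Mybpc3, cardiac myosin-binding protein C, was listed at 0 in 4 libraries, and Ttn, the giant sarcomere protein titin, in 4.

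The 7 genes fell into a class abundant enough to test and a barely detected class. Averaged over the 6 libraries, Atp2a2 stood at 109 FPKM, Gja1 at 34.2, Gata6 at 5.62 and Tnnt2 at 2.24 FPKM, which puts them at the 97.1, 89.5, 64.6 and 54.5 percentile of all listed genes. Hand2 averaged 0.05005 FPKM, Gata4 0.0191 and Tbx5 0.00391 FPKM, at the 31.3, 23.98 and 10.6 percentile. The order from Atp2a2 through Gja1, Gata6 and Tnnt2 to Hand2 held in all 6 libraries without overlap of the ranges. Tnnt2 was 44.7 times the level of Hand2, the widest gap between neighbours in this order. The ranges of Hand2 and Gata4 overlapped, with Hand2 the higher in 5 of 6 libraries, and those of Gata4 and Tbx5 overlapped too.

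**Figure D1:**
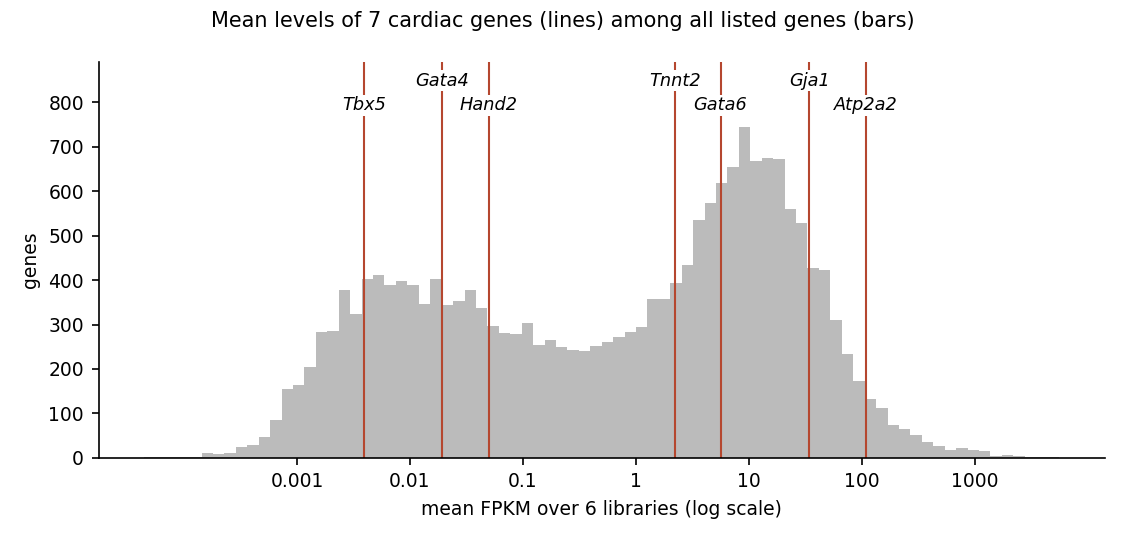
Histogram of the mean FPKM over 6 libraries of all 19877 listed genes (horizontal axis on a log scale, vertical axis the number of genes), with a line for each of the 7 cardiac genes. Tnnt2, Gata6, Gja1 and Atp2a2 lie in the upper mode of the distribution, and Tbx5, Gata4 and Hand2 lie in the lower one.

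All 3 genes of cardiomyocyte function were higher in knockdown than in scrambled libraries, and none of the 4 testable cardiac genes was called lower. The 4 were above 1 FPKM in all 6 libraries. The values were tested with limma on log2(FPKM + 0.5) across the 10311 genes that reached 1 FPKM in at least 3 libraries, with Benjamini-Hochberg adjustment and a threshold of 0.05. Calls were common in this comparison: 51.0% of the tested genes passed, 19.8% higher and 31.1% lower. The median log2 fold change of the 4 testable cardiac genes was 0.28, and that of all tested genes was −0.05. The share of higher genes among the calls moved with the scaling, from 38.9% as reported to 27.6% after rescaling to TPM, 56.7% after median centring and 52.4% after quantile normalization, while the 3 genes kept their direction and their call under each of these. In bulk libraries, fewer cells of a type and less RNA per cell cannot be told apart.

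Tnnt2, cardiac troponin T, changed most among them. On GRCm38 the gene spans 135836354 to 135852260 of chromosome 1 on the plus strand, and GENCODE M21 annotates 15 transcripts of it. The level was 3.22, 2.94 and 2.32 FPKM in knockdown libraries 1, 2 and 3, against 1.73, 1.84 and 1.39 FPKM in scrambled libraries 1, 2 and 3. Each knockdown library lay above each scrambled library, and library 3 was the lowest of its group on both sides. These levels rest on few fragments, 169, 136 and 134 in the knockdown and 101, 98 and 75 in the scrambled libraries. The knockdown mean of 2.83 ± 0.459 FPKM was 1.71 times the scrambled mean of 1.65 ± 0.237 FPKM (SD, n = 3 each), a log2 fold change of 0.62 ± 0.12 (SE, limma adjusted p = 0.00278). Batch by batch, the knockdown library exceeded its scrambled partner by 0.74, 0.56 and 0.58 on the log2 scale. By size the rise of Tnnt2 ranked 74 among the 2046 genes called higher, whose median rise was 0.22.

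Genes of similar abundance moved the other way as a class. The 1689 genes with a mean between 1 and 3 FPKM, the class of Tnnt2, together took 0.858 times the share of fragments in knockdown that they took in scrambled libraries. The part of this shift in the result for Tnnt2 was not tested. Quantile normalization, which gives all libraries the same distribution of levels, put the log2 fold change of Tnnt2 at 0.83 (limma adjusted p = 0.00133).

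Gja1, which encodes connexin 43, the main connexin of the working heart muscle and of many stromal cells, rose by less than Tnnt2 and with a smaller error. The gene spans 56377330 to 56402513 of chromosome 10 (GRCm38, plus strand). It was measured at 40.03, 39.4 and 36.5 FPKM in knockdown libraries 1, 2 and 3, against 30.04, 30.4 and 28.9 FPKM in scrambled libraries 1, 2 and 3. The groups did not overlap, with knockdown the higher; 61.1% of the tested genes did not overlap, and for 23.8% knockdown was the higher group. The knockdown mean of 38.7 ± 1.89 FPKM was 1.30 times the scrambled mean of 29.7 ± 0.789 FPKM (SD, n = 3 each), a log2 fold change of 0.37 ± 0.04 (SE, limma adjusted p = 0.000200). The difference was 0.41, 0.37 and 0.33 on the log2 scale within batches 1, 2 and 3. Between 3517 and 4748 fragments per library stand behind these values.

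Atp2a2, which encodes SERCA2, the calcium pump of the sarcoplasmic and endoplasmic reticulum, rose least. The gene spans 122453513 to 122502225 of chromosome 5 (GRCm38, minus strand). Its level was 121, 119 and 110 FPKM in knockdown libraries 1, 2 and 3, against 102, 102 and 101 FPKM in scrambled libraries 1, 2 and 3. Here too library 3 was the lowest of its group on both sides, and the groups did not overlap. The knockdown mean of 117 ± 5.75 FPKM was 1.15 times the scrambled mean of 102 ± 0.794 FPKM (SD, n = 3 each), a log2 fold change of 0.20 ± 0.04 (SE, limma adjusted p = 0.00246). The log2 difference of Atp2a2 within batches 1, 2 and 3 was 0.25, 0.22 and 0.13. The gene has a heart isoform and a widely used isoform, and the deposited gene-level values do not part them. An opposite-strand entry without a row in the table, Gm43361, overlaps 83 of its exon bases.

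**Figure D2:**
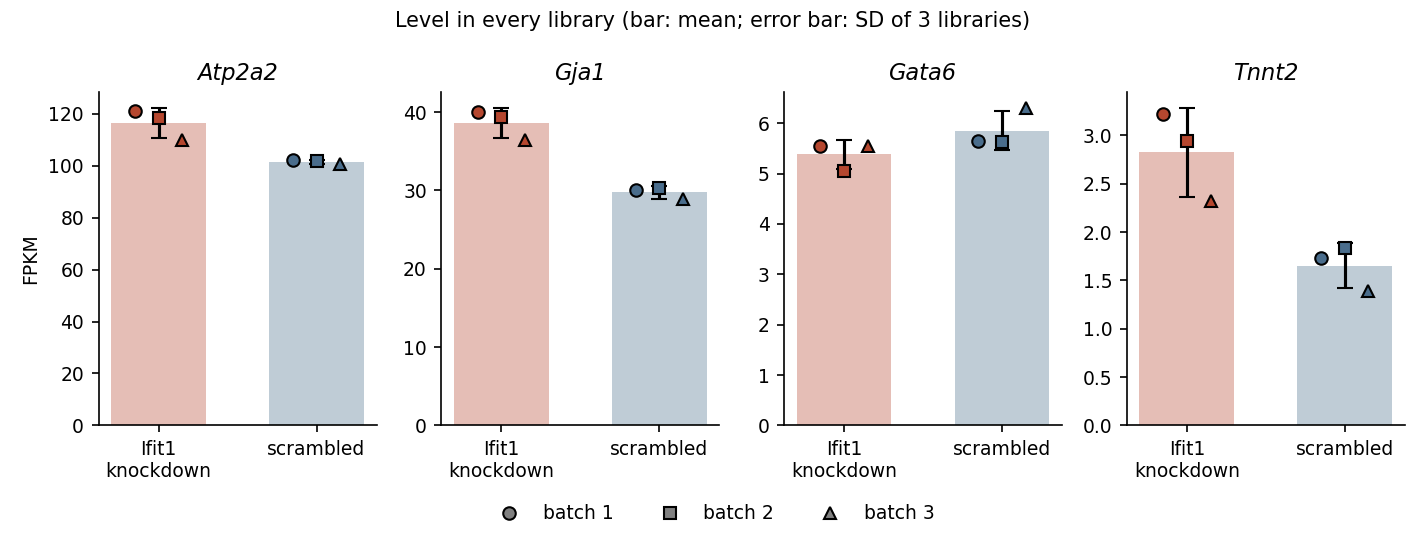
FPKM of Atp2a2, Gja1, Gata6 and Tnnt2 in every library (points, shaped by batch), with the group mean as a bar and the SD of 3 libraries as its error bar, Ifit1 knockdown left of scrambled. The 3 knockdown points lie above the 3 scrambled points for Atp2a2, Gja1 and Tnnt2, and below them for Gata6.

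The 250 bases before a start of Tnnt2 and of Gja1 are shown, from RefSeq on GRCm38.p6, both plus strand, with motif matches in capitals. Atp2a2, also called higher, had no window in the sequences used here. For Tnnt2 this is chr1:135836084-135836333, the first of its 2 listed starts, and for Gja1 chr10:56377050-56377299.
Tnnt2: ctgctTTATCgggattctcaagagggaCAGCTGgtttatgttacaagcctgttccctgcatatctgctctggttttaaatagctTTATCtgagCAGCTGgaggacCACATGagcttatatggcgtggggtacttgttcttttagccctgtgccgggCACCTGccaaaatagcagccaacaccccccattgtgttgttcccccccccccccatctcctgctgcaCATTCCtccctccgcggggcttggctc
Gja1: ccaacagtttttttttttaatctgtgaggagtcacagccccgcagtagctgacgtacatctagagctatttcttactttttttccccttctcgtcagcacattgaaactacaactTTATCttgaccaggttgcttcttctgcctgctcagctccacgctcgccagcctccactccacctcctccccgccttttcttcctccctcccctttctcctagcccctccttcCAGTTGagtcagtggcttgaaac
Both strands were searched for GATAA (bound by GATA factors), CANNTG (the E-box of basic helix-loop-helix factors such as HAND proteins), GGTGTG (part of a T-box site), CATTCC (the M-CAT site of TEAD factors) and the CArG box of SRF. GATAA, read as TTATC on the printed strand, occurred 2 times before Tnnt2 and 1 time before Gja1, and 22.6% of the 32851 windows of this length in the table hold it. CANNTG occurred 4 times before Tnnt2 and 1 time before Gja1, and 66.2% of windows hold it. CATTCC occurred 1 time before Tnnt2, and 12.6% of windows hold it. GGTGTG, held by 16.3% of windows, and the CArG box, held by 1.47%, had no match in either. The window of the other listed Tnnt2 start, not printed, held 1 match to CANNTG and none to the other motifs, and which start these cells use was not tested. The window before Hand2, a gene near the detection limit in both groups, held 2 matches to GATAA and 2 to CANNTG. The window before Tbx20, whose expression was not analysed here, held no match to any of these motifs. Gata6 was left out of this listing of matches. The windows therefore give no contrast with a testable cardiac gene that was not called higher. No 2 matches overlapped, and a match describes the letters in the window and not a bound site.

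Gata6, a zinc finger factor of heart, gut and smooth muscle development, was the 1 cardiac transcription factor in the list with an appreciable level, and its difference did not pass the threshold. The gene spans 11052064 to 11085635 of chromosome 18 (GRCm38, plus strand). It stood at 5.55, 5.06 and 5.56 FPKM in knockdown libraries 1, 2 and 3, against 5.64, 5.62 and 6.31 FPKM in scrambled libraries 1, 2 and 3. The highest knockdown library lay just under the lowest scrambled library, a gap smaller than the range within either group. The means were 5.39 ± 0.286 FPKM in knockdown and 5.86 ± 0.390 FPKM in scrambled libraries (SD, n = 3 each), a log2 fold change of −0.11 ± 0.06 (SE, limma adjusted p = 0.172). The 95% confidence interval of that fold change ran from −0.25 to 0.03, so it excludes a rise as large as those estimated for Atp2a2, Gja1 or Tnnt2. Batch by batch the log2 difference of Gata6 was −0.02, −0.14 and −0.17. Under quantile normalization the log2 fold change of Gata6 was −0.0061.

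Gata6os is a non-coding RNA on the opposite strand, and its annotated span covers 192 exon bases of Gata6. It had 0.163, 0.185 and 0.197 FPKM in knockdown and 0.318, 0.161 and 0.659 FPKM in scrambled libraries. The groups overlapped, at 6 to 25 fragments per library. Whether these bases lie in exons of Gata6os was not examined. Without the strand setting, reads of any bases in exons of both genes cannot be told apart.

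Gata4, Hand2 and Tbx5 were at or near the detection limit in both groups. Hand2, a basic helix-loop-helix factor of the right ventricle (chromosome 8), had 6, 1 and 2 fragments in knockdown libraries 1, 2 and 3, against 11, 4 and 2 in scrambled libraries 1, 2 and 3. These are 0.0728, 0.0138 and 0.0221 FPKM in knockdown and 0.120, 0.0478 and 0.0236 FPKM in scrambled libraries, and the groups overlapped. The annotated span of Hand2os1, a non-coding gene on the opposite strand, covers 1951 exon bases of Hand2. Whether these bases lie in exons of Hand2os1 was not examined. Reads of any bases in exons of both genes cannot be told apart without strand.

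Gata4, a zinc finger factor of early heart development (chromosome 14), had 2, 1 and 1 fragments in knockdown libraries 1, 2 and 3, against 1, 3 and 8 in scrambled libraries 1, 2 and 3. In FPKM that is 0.0147, 0.00832 and 0.00667 in knockdown and 0.00661, 0.0217 and 0.0569 in scrambled libraries. A single scrambled library held 8 of the 12 scrambled fragments of Gata4.

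Tbx5, the T-box factor of the left ventricle and the forelimb (chromosome 5), was listed at 0 in all 3 knockdown libraries and in scrambled library 1. Scrambled libraries 2 and 3 held 1 and 4 fragments (0.00475 and 0.0187 FPKM). A count of 0 allows up to 3 fragments, which is between 0.0131 and 0.0164 FPKM of Tbx5 in a knockdown library. The groups overlapped for each of the 3 genes, while 40.0% of all listed genes did not overlap. No difference was detectable at this depth for any of them. An exact two-sided permutation test of 3 libraries against 3, which cannot go below p = 0.1, gave p = 0.5 for Hand2, 0.4 for Gata4 and 0.4 for Tbx5. In a limma fit of all 19877 genes, where 25.4% passed, the adjusted p was 0.555, 0.392 and 0.444 for Hand2, Gata4 and Tbx5. Genes of such levels took a smaller share of fragments in knockdown libraries as a class, 0.735 times the scrambled share below 0.02 FPKM (the class of Gata4 and Tbx5) and 0.753 times between 0.02 and 0.1 FPKM (the class of Hand2). The part of this in the lower sums of 9 fragments in knockdown against 17 in scrambled for Hand2, 4 against 12 for Gata4 and 0 against 5 for Tbx5 was not tested.

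**Figure D3:**
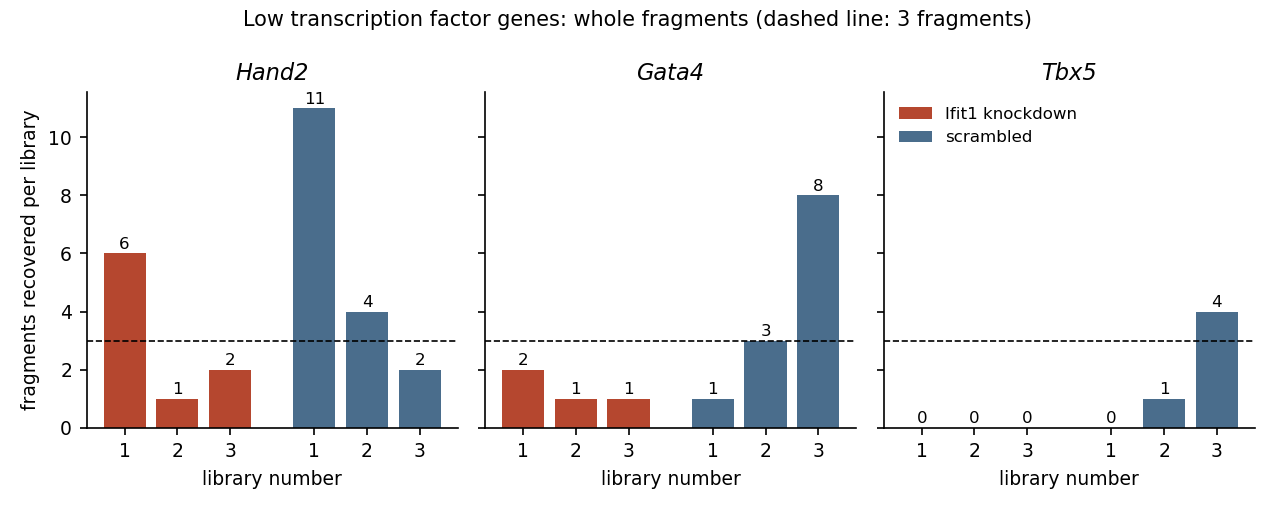
Whole fragments of Hand2, Gata4 and Tbx5 recovered in each library (vertical axis), Ifit1 knockdown libraries left of scrambled libraries, with the 3 fragments that a count of 0 allows as a dashed line. No library exceeded 11 fragments for any of the 3 genes.

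To see whether the genes around these moved in the same direction, 7 lists of related genes were counted. Of 110 related genes with a row, 50 were abundant enough to test, and 9 were higher and 11 lower in knockdown, against a background of 19.8% higher and 31.1% lower. The 11 include Hopx, which reached the filter through the scrambled libraries alone, so its place in this count carries no weight.

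Among 6 tested sarcomere genes besides Tnnt2, 3 were higher, 0 lower and 3 not past the threshold, with a median log2 fold change of 0.14. The 3 were tropomyosin genes, whose products lie along the thin filament and are used in non-muscle cells as well. Tpm4 was at 833 ± 25.3 FPKM in knockdown and 709 ± 12.4 FPKM in scrambled libraries (SD, n = 3 each), with a log2 fold change of 0.23 ± 0.03 (SE, limma adjusted p = 0.000316). Tpm3 rose by 0.21 and Tpm2 by 0.19 on the log2 scale. Tnnc1, the calcium-binding troponin of heart and slow muscle, was at 2.01, 2.55 and 2.11 FPKM in knockdown and 2.62, 2.17 and 1.65 FPKM in scrambled libraries, with a log2 fold change of 0.05 that missed the threshold (limma adjusted p = 0.770). The cardiac inhibitory troponin Tnni3, which was too low for the test, had 0.0662, 0.0376 and 0.105 FPKM in knockdown and 0.224, 0.343 and 0.273 FPKM in scrambled libraries. The 3 cardiac troponin subunits therefore did not share a direction. Tnnt2 was higher, Tnnc1 overlapped between groups, and the low level of Tnni3 was lower in every knockdown library. Genes with a mean between 0.1 and 0.5 FPKM, the class of Tnni3, together took 0.762 times the scrambled share of fragments in knockdown. The part of this in the result for Tnni3 was not tested, and 40.0% of all listed genes did not overlap between groups.

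Of 6 tested genes of gap junctions and their partners besides Gja1, 1 was higher, 2 were lower and 3 did not pass (median log2 fold change 0.00). Cdh2, the N-cadherin that anchors cells beside connexin 43 in heart muscle, averaged 20.1 ± 1.22 FPKM in knockdown and 15.9 ± 0.796 FPKM in scrambled libraries (SD, n = 3 each), with a log2 fold change of 0.33 ± 0.05 (SE, limma adjusted p = 0.00131). Gjb2, connexin 26, was at 6.38, 6.77 and 7.73 FPKM in knockdown, against 13.3, 11.7 and 17.6 FPKM in scrambled libraries, a log2 fold change of −0.96 ± 0.13 (SE, limma adjusted p = 0.000462). Tjp1, the ZO-1 scaffold to which connexin 43 binds, fell by 0.23 on the log2 scale. Gjc1, connexin 45, the other connexin of the list with more than 10 FPKM, averaged 15.3 FPKM in knockdown and 15.6 FPKM in scrambled libraries and did not pass (limma adjusted p = 0.688). Gja1 was thus the 1 connexin called higher among the 3 connexins tested.

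Of 13 tested calcium-handling genes besides Atp2a2, 1 was higher, 2 were lower and 10 did not pass, with a median log2 fold change of −0.06. Atp2b4, a calcium pump of the plasma membrane, averaged 1.37 ± 0.111 FPKM in knockdown and 2.62 ± 0.0125 FPKM in scrambled libraries (SD, n = 3 each), with a log2 fold change of −0.74 ± 0.07 (SE, limma adjusted p = 0.000112). Without knockdown library 3, 5 of the 13 were lower. Itpr3, a calcium release channel of the endoplasmic reticulum, fell by 0.28 on the log2 scale. Calr, the calcium-binding chaperone calreticulin, rose by 0.10, a call lost in 8 of 16 alternatives, among them the fits without knockdown library 1 or 2 or scrambled library 2 or 3 (limma adjusted p = 0.0516 to 0.0946), and its sign turned under quantile normalization. The other SERCA genes were low: Atp2a1 stood at no more than 0.0155 FPKM and Atp2a3 at no more than 0.189 FPKM in any library, so Atp2a2 supplied nearly all SERCA transcript in both groups.

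Of 3 tested GATA factors and cofactors, 2 were lower and 1 did not pass. Zfpm1, the GATA cofactor FOG-1, averaged 7.24 ± 0.892 FPKM in knockdown and 9.66 ± 0.628 FPKM in scrambled libraries (SD, n = 3 each), a log2 fold change of −0.40 ± 0.08 (SE, limma adjusted p = 0.00406). Gata2, a factor of blood and stromal precursors, fell by 0.24 (limma adjusted p = 0.0387), a call lost in 10 of 16 alternatives, among them the replicate block (adjusted p = 0.0572) and the fits without any 1 library other than knockdown library 3 (adjusted p = 0.0537 to 0.117). Zfpm2, the cofactor FOG-2 that partners Gata4 in the heart, averaged 14.2 FPKM in knockdown and 14.3 FPKM in scrambled libraries and did not pass (limma adjusted p = 0.992).

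Of 5 tested T-box genes, 0 were higher, 1 was lower and 4 did not pass. Tbx15, a T-box factor of fat and limb mesenchyme, averaged 40.96 FPKM in knockdown and 42.5 FPKM in scrambled libraries (limma adjusted p = 0.369). Tbx18, a factor of the sinus node and epicardium, averaged 4.96 FPKM in knockdown and 5.12 FPKM in scrambled libraries (limma adjusted p = 0.498). The 1 call was Mga, a large factor with a T-box domain, which fell by 0.21 (limma adjusted p = 0.0128), a call lost under median centring and quantile normalization and without scrambled library 1 (adjusted p = 0.0513).

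Of 5 tested basic helix-loop-helix genes related to Hand2, 1 was higher, 2 were lower and 2 did not pass. Tcf4, an E-protein partner of HAND and TWIST factors, fell by 0.36 on the log2 scale (limma adjusted p = 0.00581), a call lost under quantile normalization, and Tcf12, a second E-protein, fell by 0.15, a call lost under median centring and without scrambled library 1 (adjusted p = 0.0544). Twist2 rose by 0.24, a call lost in 8 of 16 alternatives, among them the fits without knockdown library 2 or without any 1 scrambled library (limma adjusted p = 0.0610 to 0.0944).

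Of 12 other tested regulators of heart muscle, 3 were higher, 2 lower and 7 not past the threshold. Srf, the factor that binds CArG boxes of contractile genes, was at 33.4, 31.5 and 29.5 FPKM in knockdown, against 22.5, 23.5 and 21.6 FPKM in scrambled libraries, a log2 fold change of 0.47 ± 0.05 (SE, limma adjusted p = 0.000164). Hopx, a homeodomain protein that binds SRF and limits its activity, was at 0.443, 0.402 and 0.483 FPKM in knockdown, against 1.69, 1.99 and 1.41 FPKM in scrambled libraries, a log2 fold change of −1.21 ± 0.11 (SE, limma adjusted p = 9.1e-05). Hopx reached the 1 FPKM of the filter through the scrambled libraries alone, so it entered the test as a gene that could only be called lower, and its p and its place among the 2 lower genes carry no weight. Nfatc4, a calcineurin-dependent factor, fell by 0.65. The other 2 genes called higher, named after their values were seen, were Ankrd1, the cardiac ankyrin repeat protein that is also a YAP target (log2 fold change 0.69), and Tead1, the factor that binds M-CAT sites (0.18). Further factors used with Gata4 and Tbx5 in cardiac reprogramming or in the early heart were near 0: Mef2c was at most 0.0104 FPKM, Nkx2-5 at most 0.0798 FPKM and Isl1 at most 0.0104 FPKM in any library.

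**Figure D4:**
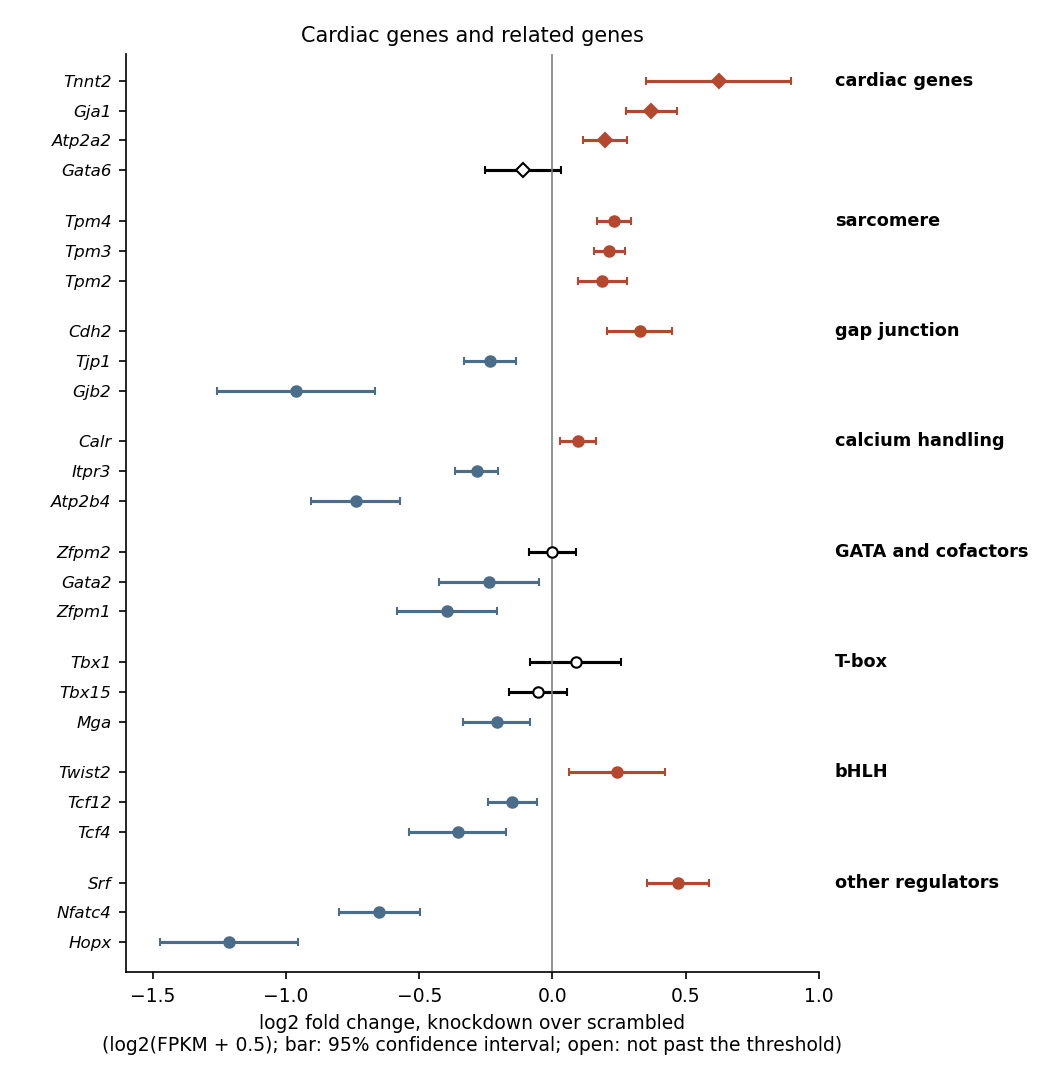
Log2 fold change of knockdown over scrambled with its 95% confidence interval for the 4 testable cardiac genes (diamonds) and for up to 3 genes of smallest p from each of 7 related lists (circles); filled symbols passed the threshold and open ones did not. Tnnt2, Gja1 and Atp2a2 lie right of 0 with the tropomyosin genes, Cdh2 and Srf, and Gata6 overlaps 0. Hopx is drawn as passed but reached the filter through the scrambled libraries alone, so its call carries no weight.

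Cells of other contractile types were looked for by their markers. Of 6 smooth muscle markers, 4 were tested, and 2 were higher and 0 lower. Of all tested genes, 19.8% were called higher and 31.1% lower. Acta2 and Cnn1 overlapped between the groups and did not pass (limma adjusted p = 0.0781 and 0.124). Mylk, too low for the test, had 0.110, 0.103 and 0.213 FPKM in knockdown and 0.272, 0.259 and 0.463 FPKM in scrambled libraries. Tagln, the SRF-dependent transgelin, averaged 433 ± 56.2 FPKM in knockdown and 315 ± 29.3 FPKM in scrambled libraries (SD, n = 3 each), and Smtn, smoothelin, had a log2 fold change of 0.24 (limma adjusted p = 0.007004). Summed over the 6 markers, the level was 859 to 1080 FPKM in knockdown and 701 to 877 FPKM in scrambled libraries. Most of it was Acta2 and Tagln. Myh11, the myosin of differentiated smooth muscle, was at most 0.0561 FPKM. Of 10 skeletal muscle markers, 5 had a row, 0 were abundant enough to test, and their summed level was 0.557 to 1.51 FPKM in knockdown and 0.828 to 1.08 FPKM in scrambled libraries. Of 10 mesothelial and epicardial markers, 9 had a row and 2 were tested, Msln called lower and Krt19 higher in knockdown, with sums of 97.0 to 97.3 FPKM in knockdown and 87.2 to 98.1 FPKM in scrambled libraries, while the epicardial factor Wt1 was at most 0.0877 FPKM. Nppb, which marks stressed or immature heart muscle and was singled out after its values were seen, had 0.585, 0.638 and 0.512 FPKM in knockdown, against 0.142, 0.155 and 0.218 FPKM in scrambled libraries. The Msln groups overlapped (13.1, 15.5 and 17.7 FPKM in knockdown, 25.4, 24.7 and 17.5 FPKM in scrambled libraries), and its call was lost with no filter (limma adjusted p = 0.0756). The part of these markers in the rise of Tnnt2, Gja1 and Atp2a2 was not tested.

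The profiles most like those of the 4 testable genes were found by the root mean square distance between log2 levels centred over the 6 libraries, among all tested genes other than predicted ones. For Tnnt2 they were Ptgs2, the prostaglandin synthase COX-2 (distance 0.024), and Etv4, an ETS factor (0.039), against a spread of Tnnt2 itself of 0.35. For Gja1 they were Wdr43, a nucleolar protein of ribosome assembly (distance 0.0073), and Naf1, an assembly factor of small nucleolar particles (0.015), with a spread of Gja1 of 0.19. For Atp2a2 they were the ribosomal protein gene Rpl29 (0.0073) and Wwc2 (0.011), with a spread of Atp2a2 of 0.11. For Gata6 they were Tcirg1, a subunit of the proton pump (0.016), and Tmem177 (0.022), with a spread of Gata6 of 0.085. All 8 were ranked over the same 6 libraries, which fall into 2 groups.

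The calls of Tnnt2, Gja1 and Atp2a2 held in each alternative that could give them, including the fits that left out any 1 library. Over the alternatives the log2 fold change ran from 0.52 to 0.83 for Tnnt2, from 0.33 to 0.44 for Gja1 and from 0.14 to 0.26 for Atp2a2. Gata6 ran from −0.16 to −0.0061 and passed in none of its 16 alternatives, with adjusted p-values from 0.0691 to 0.945. Without knockdown library 3, the lowest of its group for Tnnt2, Gja1 and Atp2a2, the log2 fold change was 0.74, 0.41 and 0.24.

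**Figure D5:**
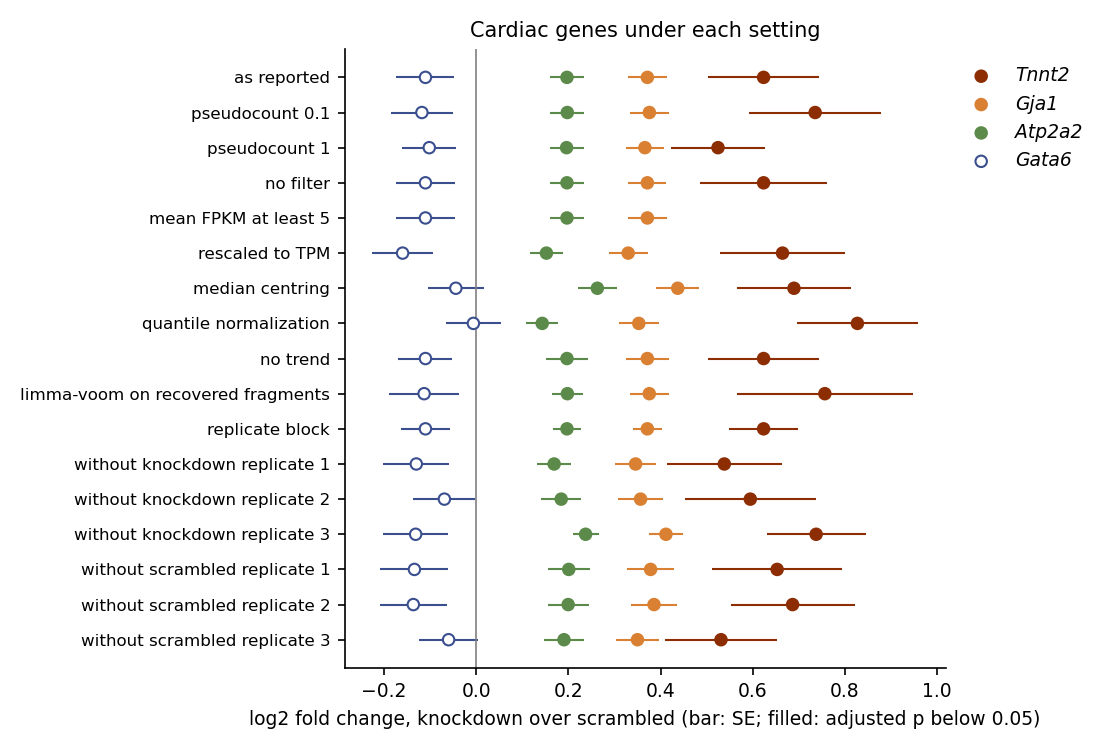
Log2 fold change of knockdown over scrambled (horizontal axis, bars are the SE) of Tnnt2, Gja1, Atp2a2 and Gata6 as reported and under each alternative setting (rows); filled points have an adjusted p below 0.05. Tnnt2 has no value where a mean of at least 5 FPKM was asked for. The 3 genes of cardiomyocyte function stay filled and right of 0 in every row where they appear, and the points of Gata6 are all unfilled.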

How the data were processed

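The authors deposited 1 table of FPKM values for 6 libraries. Builds in the submitters' processing notes are GRCm38, mm10 and GRCm39, without a role for any. Aligner, counter and strand setting: not given in the sources used here. Per the labels' protocols, libraries were made from bead-enriched mRNA.

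Whole fragments were recovered as the smallest whole numbers that give a gene's FPKM in all libraries (19877 of 19877 genes within 0.002 of a whole number), which understates counts that share a factor. Intervals and limits from them cover counting error only. A gene was tested if 3 or more of its 6 values reached 1 FPKM; the test was run on log2(FPKM + 0.5), a scale that understates changes of low genes, with limma 3.58.1 (R 4.3.3, trend, two-sided) and Benjamini-Hochberg adjustment. The method was tested on simulated data. Genes named beyond the 8 and Ifit1 are up to 3 of smallest p per list and the 2 nearest profiles per testable gene. Overlapping genes and measured markers are named as well. Further genes of the lists were named outside this rule: Tnnc1, Gjc1, Tbx18, Atp2a1, Atp2a3, Mef2c, Nkx2-5, Isl1, Ankrd1 and Tead1. The cardiac genes, lists and tests were chosen with earlier results of these data known. Positions are from GENCODE M21 on GRCm38, and 1010001N08Rik there was matched to Gata6os through RefSeq synonyms.

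The labels give the same batch to libraries of 1 number, so the number pairs the libraries. The main limma fit did not use this pairing, which entered only as the replicate block among the alternatives. Deviations from the group means correlated across genes by 0.086, 0.012 and 0.19 within pairs 1, 2 and 3, and by −0.17 to 0.11 between unmatched libraries, so the pairing rests on the labels and not on these values.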

Additional observations from a re-analysis of the deposited data

How the results depend on the processing

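Each result was recomputed with a pseudocount of 0.1 or 1, no filter, a mean of at least 5 FPKM, TPM, median centring, quantile normalization, no trend, limma-voom on recovered fragments, batch as a replicate block, and without each library in turn. All 63 alternative values of Tnnt2, Gja1, Atp2a2 and Gata6 kept direction and side of the threshold. With the replicate block the log2 fold changes were the same. The limma adjusted p-values were then 0.000829 for Tnnt2, 0.000266 for Gja1, 0.00239 for Atp2a2 and 0.131 for Gata6. Of the related genes named for their small p in a list, Gata2 alone lost its call. The 5255 calls over all genes became 4335 to 5284 when 1 library was left out. With a mean of at least 5 FPKM, 2042 genes were lower in place of 3209 and 7 related genes were lower in place of 11, since fewer genes were tested. The sign turned for Calr under quantile normalization (−0.0063), Tbx15 under median centring (0.012), Tmem177 under quantile normalization (0.078) and Zfpm2 under median centring (0.065), quantile normalization (0.042), limma-voom (0.0023) and with 1 library left out (−0.011 to 0.019, positive without knockdown library 2 or scrambled library 3), and the cause was not tested. Of 224 counts of calls in a related list, 45 moved by over 1.5 times, by at most 3 genes. Depth limits Hand2, Gata4 and Tbx5, at 11 fragments or fewer in a library, to the statement that they were at or near the detection limit.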
